A study of Mus musculus with 4 samples.

Results

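Hairpin reads are sequenced small RNAs that fall on an annotated miRNA precursor but were not assigned by the submitters to one of its arms. They were taken here as every read of the deposited hairpin tables that matched 1 precursor. Across the 4 libraries 240 precursor names held such reads, of 870 names counted within the mature, star, predicted star and hairpin tables. They gave 28810 of 15776162 assigned reads and 2632 distinct sequences. The RNA was from NIH-3T3, a long-established line of mouse embryo fibroblasts, grown to confluency. The 2 control libraries were compared with 2 libraries from cells given thapsigargin at 500 nM for 24 h. Thapsigargin blocks the calcium pump of the endoplasmic reticulum and causes stress in that organelle. The labels name no genetic change in either group, and do not say whether the replicates of a group were separate cultures, so p-values measure only the spread between these libraries.

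A miRNA is cut from a folded primary transcript by 2 enzymes in turn. Drosha releases the hairpin in the nucleus and Dicer removes its loop in the cytoplasm, which leaves a duplex of a 5′ arm and a 3′ arm. One arm is usually loaded into Argonaute and the loop and the transcript next to the hairpin are usually degraded, although stable loop fragments and fragments that abut an arm on its outer side, called moRs, are known in animals. The first base of an arm matters for its function, because the seed, bases 2 to 8, pairs with target mRNAs and moves when the first base moves.

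The following reads show the commonest kind of hairpin read and, under each, the same read without its first base as counted for the arm. Capitals mark bases 2 to 8. The reads are as deposited, 5′ to 3′, from the library in which the hairpin read was most frequent, control replicate 1.
mir-10a hairpin read: aTACCCTGtagatccgaatttgt
mir-10a arm read: tACCCTGTagatccgaatttgt
mir-101a hairpin read: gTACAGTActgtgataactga
mir-101a arm read: tACAGTACtgtgataactga
mir-345 hairpin read: tGCTGACCcctagtccagtgct
mir-345 arm read: gCTGACCCctagtccagtgct
mir-29a hairpin read: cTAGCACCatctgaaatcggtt
mir-29a arm read: tAGCACCAtctgaaatcggtt

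The next sequences are RefSeq hairpins of GRCm38.p6 and show where the other kinds of read lie. Mir16-1 lies at chr14:61631880-61631972 on the minus strand, and its capitals are the loop read with the most reads. Mir214 lies at chr1:162223368-162223477 on the plus strand, and its capitals are, in order, its leading 5′ flank, loop and 3′ flank reads. Mir582 lies at chr13:109324744-109324824 on the plus strand, and its capitals are the leading read of control replicate 1.
mir-16-1 hairpin: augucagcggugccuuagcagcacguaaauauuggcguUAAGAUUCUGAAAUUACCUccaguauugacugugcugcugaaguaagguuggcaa
mir-214 hairpin: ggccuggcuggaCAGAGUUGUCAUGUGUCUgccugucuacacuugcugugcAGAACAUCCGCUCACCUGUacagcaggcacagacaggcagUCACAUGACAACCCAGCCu
mir-582 hairpin: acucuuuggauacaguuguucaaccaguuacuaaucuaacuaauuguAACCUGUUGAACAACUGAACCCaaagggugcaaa

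Each library held 2687567 to 5574753 assigned reads. miRNAs used as fibroblast markers, the miR-199a, miR-214, miR-143, miR-145 and miR-21 arms, summed to 288066 to 1003918 reads per library, and embryonic stem cell markers to 0 to 7 reads. The 3 blood cell markers, miR-142, miR-223 and miR-155, summed to 183 to 608 reads, and epithelial, muscle and liver markers to at most 7 reads per library. Control replicate 1 stood apart in read length, with arm reads of 21.8 nt on average against 20.9 nt in each of the other 3 libraries. Reads were kept from 18 nt upwards, and the longest was 25 nt in control replicate 1 and 24 nt in each of the others.

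Hairpin reads were frequent in control replicate 1 and rare in the other 3 libraries. They numbered 21448 in control replicate 1, which was 0.553% of its assigned reads (Wilson 95% interval 0.546 to 0.560%). They numbered 1978 in control replicate 2, 3782 in thapsigargin replicate 1 and 1602 in thapsigargin replicate 2, or 0.0544%, 0.0678% and 0.0596% of assigned reads. The controls thus lay on both sides of the thapsigargin libraries, at 0.304 ± 0.353% against 0.0637 ± 0.00582% (SD, n = 2 each). The exact two-sided permutation test gave p = 1, and the smallest p that 2 libraries against 2 allow is 0.33. Without control replicate 1 the difference turned to 0.00932 percentage points higher with thapsigargin. Intervals here cover counting error only, since PCR copies of a molecule were not marked.

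**Figure D1:**
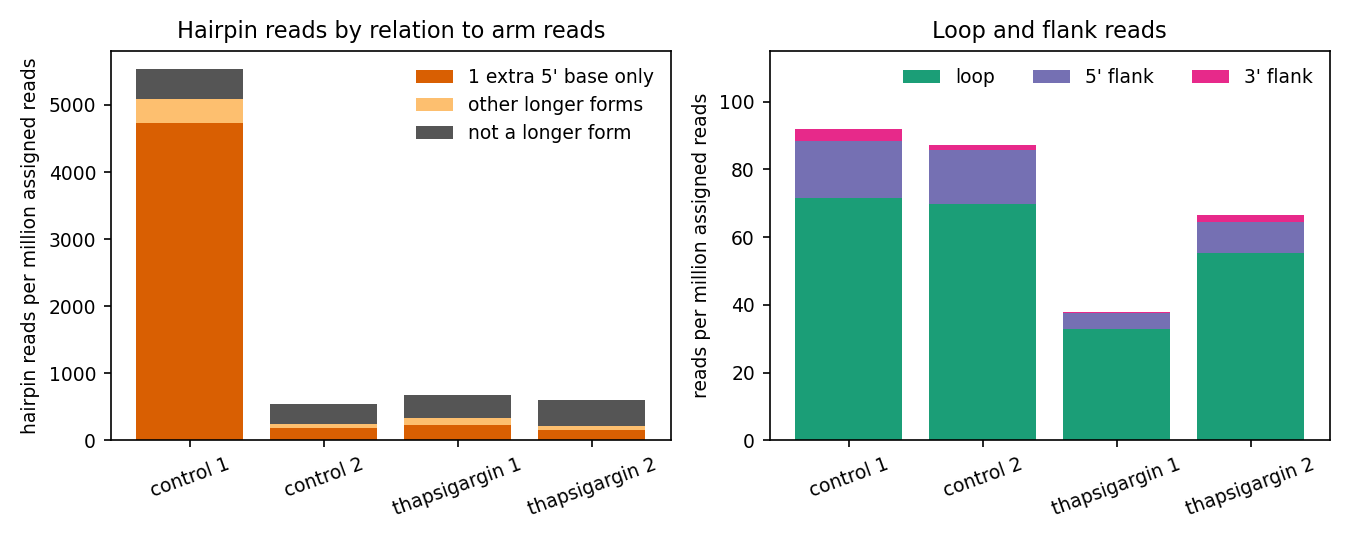
Hairpin reads in RPM, reads scaled to 1000000 assigned reads, in each library (left), split into arm reads with 1 extra base at the 5′ end, other longer forms of arm reads, and the rest, and loop and flank reads in RPM (right). Control replicate 1 reaches 5530 RPM against 544 to 678 in the other libraries, and most of its excess is in the form with 1 extra 5′ base.

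Most of this excess consisted of arm reads that carried 1 more base. A hairpin read counted as a longer form when it became identical to a read of its own precursor's arms after at most 4 bases were taken from its ends. Such reads made up 92.0% of hairpin reads in control replicate 1, 44.4% in control replicate 2, 49.9% in thapsigargin replicate 1 and 36.0% in thapsigargin replicate 2 (exact two-sided permutation p = 0.667, n = 2 each). The form with a single extra base at the 5′ end alone made up 85.5%, 33.6%, 33.0% and 25.9%. Forms that were longer only at the 3′ end were nearly missing, with 0, 1, 9 and 1 reads. The hairpin reads that were no longer form of an arm read came to 441, 303, 340 and 381 RPM, that is reads scaled to 1000000 assigned reads of the library. Control replicate 1 was thus high by far less in these. The whole class stood at 5530, 544, 678 and 596 RPM.

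The excess was next set against read length and against the first base. If reads of each length in control replicate 1 had been hairpin reads as often as in the other 3 libraries, 10570.4 hairpin reads would have been counted, 49.3% of those observed. A large part of that count rests on few reads. At 24 nt the other libraries had 3 hairpin reads of 43, 20 of 136 and 2 of 28. Their mean share was applied to 47268 reads of control replicate 1. With the lengths of control replicate 1 taken as 1 nt shorter the count would have been 2553, or 11.9%. When the first base was removed from every read of control replicate 1 and the shorter reads were assigned as in the other tables, 17984 hairpin reads became reads of a mature arm and 184 became reads of a star arm. In the other direction 312 mature reads became hairpin reads. Hairpin reads then came to 3592, or 0.0926% of the library, still above the 0.0678% of thapsigargin replicate 1. Of these, 1239 kept their class only because the shorter read was found in no other library. The 526 hairpin reads of 18 nt could not be found, since shorter reads were not kept. How much of the remaining excess comes from this rule was not tested.

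**Figure D2:**
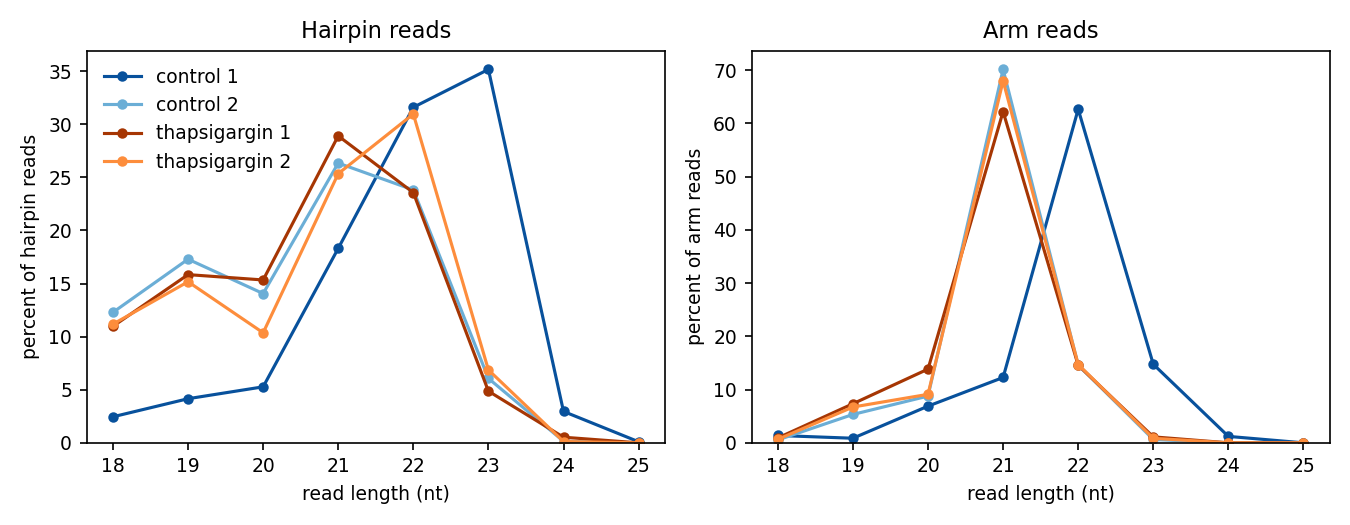
Read length (nt) of hairpin reads (left) and arm reads (right), as percent of each library's reads of that class. The arm reads of control replicate 1 peak at 22 nt and those of the other 3 libraries at 21 nt. Its hairpin reads peak at 23 nt.

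The added base was usually the one that precedes the arm in the genome. Among placed reads with 1 extra 5′ base in control replicate 1, the base matched the hairpin in 13107 reads, 95.4%. In the other 629 reads it differed, and in 547 of those it was C. The matching base was A in 4770 reads, G in 4213, T in 2372 and C in 1752. In the other 3 libraries the matching base was seldom G, with 5, 11 and 5 reads. These counts are pooled over precursors, and a few precursors held much of them. In control replicate 1, mir-101a and mir-101b, whose leading reads add a G, had 2795 and 1176 reads that began 1 base before the arm. mir-10a, whose leading read adds an A, had 3695. A base preference of the libraries was not tested.

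Reads over a named arm showed the same displacement when their first bases were placed on the hairpin. An arm's annotated first base was taken as the earliest first base of any read of its arm table, so only hairpin reads can begin before it. In control replicate 1, 14124 of the hairpin reads over an arm, 94.1%, began exactly 1 base before it. In control replicate 2, thapsigargin replicate 1 and thapsigargin replicate 2 the shares were 56.0%, 60.3% and 63.5%, and 22.2%, 22.8% and 23.8% began 2 bases before it against 3.64% in control replicate 1. Hairpin reads that began after it made up 18.6%, 11.8% and 8.99% in those 3 libraries, against 0.553% in control replicate 1.

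Arm and hairpin reads were then pooled for the 19 precursors that had at least 100 hairpin reads and a RefSeq hairpin. miR-22, a widely expressed miRNA, had 99.4% of its reads at the annotated first base in control replicate 1, and 99.5%, 99.2% and 99.5% of its reads at the next base in control replicate 2, thapsigargin replicate 1 and thapsigargin replicate 2. For miR-29a, known as a repressor of collagen mRNAs, 12.5% of reads began 1 base before the annotated base in control replicate 1. At the annotated base itself the other libraries had 14.2%, 13.0% and 12.5%. These 4 values lie close together when control replicate 1 is read 1 base earlier.

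Several arms with many such reads gave values of similar size in that comparison. miR-101a, which represses Ezh2, had 52.3% in control replicate 1 and 44.8%, 43.8% and 39.2% in the other libraries. miR-101b, its close relative, had 58.6% against 54.6%, 46.3% and 45.7%. miR-345-5p had 52.5% against 60.2%, 50.3% and 57.1%, where the last rests on 28 reads.

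miR-210, a hypoxia-induced miRNA, had 11.6% against 12.1%, 12.5% and 15.5%. miR-214 had 36.3% against 32.1%, 36.0% and 32.0%. miR-10b, the most abundant arm among these, had 0.0212% against 0.0217%, 0.0220% and 0.0205%. Other arms lay further apart. The star arm of mir-16-1 had 11.5% against 28.6%, 23.3% and 12%, and miR-106b* 2.33% against 0.769%, 1.01% and 2.26%. miR-582-3p had 1.09% against 0.383%, 1.14% and 0%, and the predicted star of mir-181a-2 had 0% against 0%, 1.16% and 0%. let-7d* and miR-146b had 0.0563% and 0.0229% against 0% in each other library. These positions were nearly empty for both arms, and their main starts did lie 1 base apart. let-7d* had 94.8% at the annotated base in control replicate 1, and 96.7%, 94.7% and 94.7% at the next base in the other libraries. For miR-146b the values were 92.0% against 97.7%, 93.7% and 96.5%.

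The share before the annotated base was higher in control replicate 1 than in any other library for 16 of the 19 arms, and the 3 exceptions were miR-106b*, miR-582-3p and the predicted star of mir-181a-2. The 19 were chosen by their hairpin reads, which for many of them came mostly from control replicate 1. Reads before the annotated base are hairpin reads by definition, so this count was largely set by the choice and is no test.

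**Figure D3:**
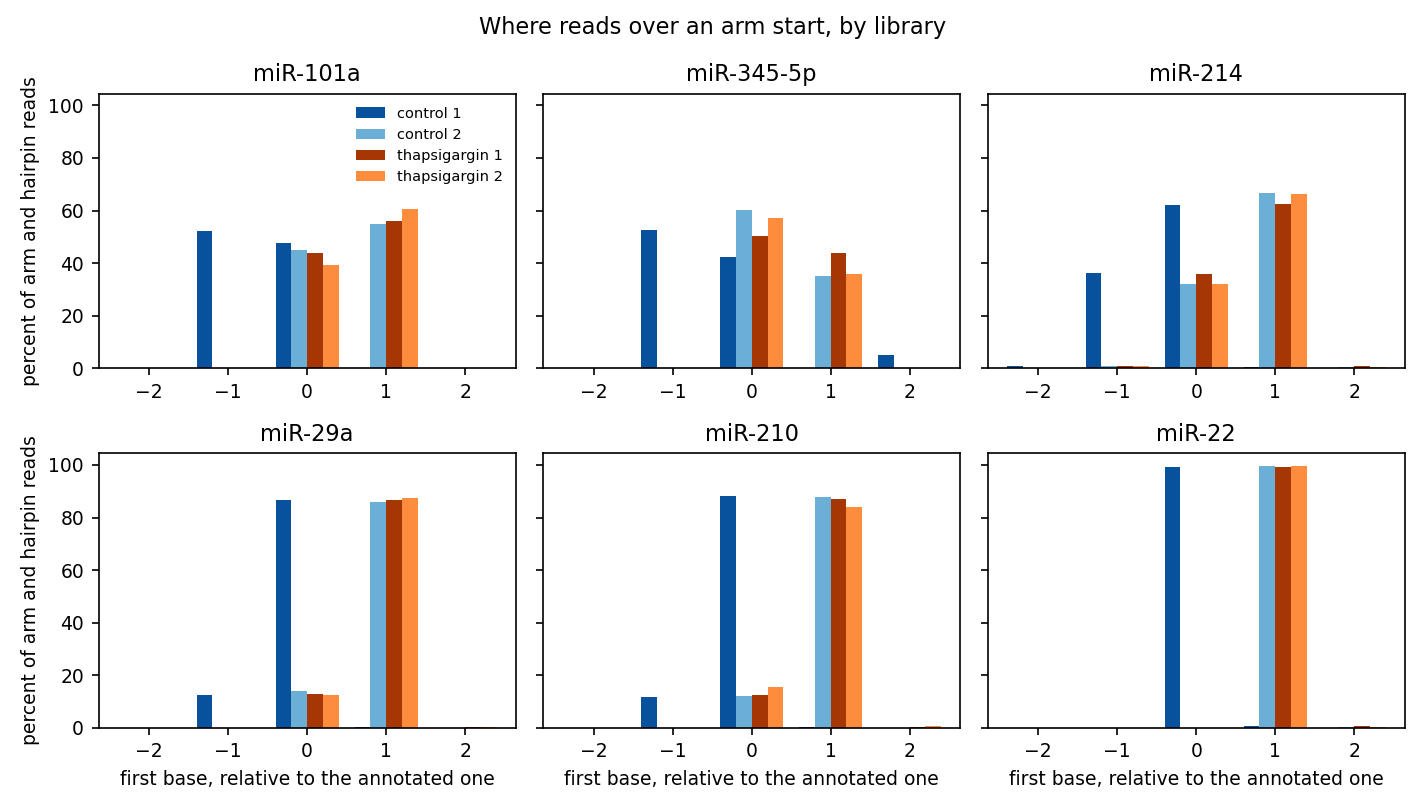
First base of all reads over 6 arms, relative to the annotated first base (0), in percent of arm and hairpin reads. Control replicate 1 shows the pattern of the other 3 libraries 1 base earlier. Bars at or before -1 hold hairpin reads only, and later bars hold arm reads with any hairpin reads that begin there.

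**Figure D4:**
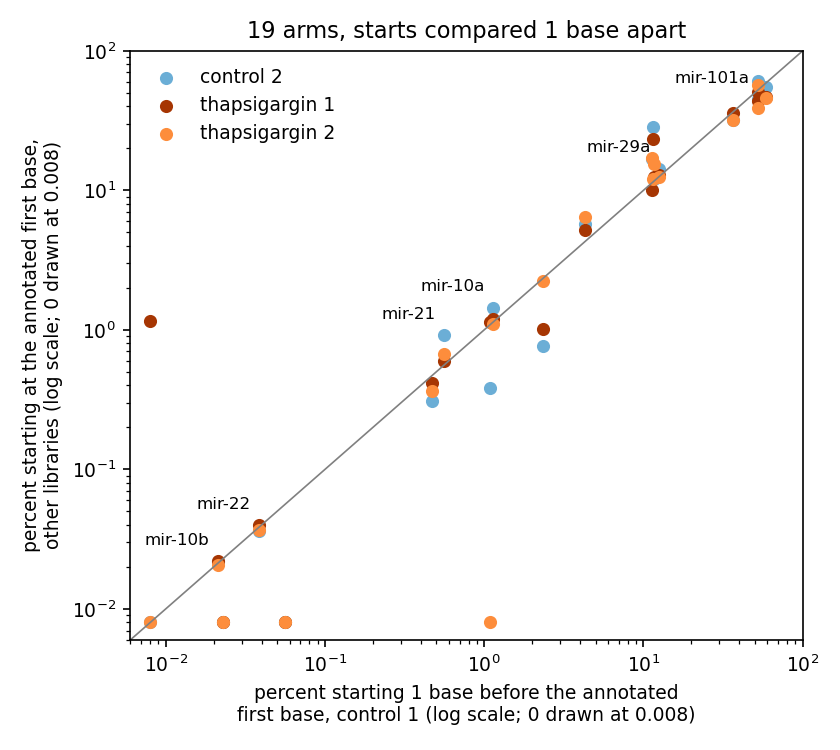
Percent of reads that begin 1 base before the annotated first base in control replicate 1 (horizontal, log scale) against the percent that begin at it in each other library (vertical, log scale), for 19 arms. The line marks equal values, and points drawn at 0.008 are zeros. miR-10b, 0.0212%, and miR-101b, 58.6%, lie near the line, while the star arm of mir-16-1 lies above it in 2 of the other libraries and let-7d* and miR-146b are zeros in all 3.

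The precursors with the most hairpin reads fell into 3 kinds. The 15 with the highest mean share of a library's hairpin reads together held 75.3%, 74.7%, 75.3% and 81.4% of hairpin reads in the 4 libraries, in the order control replicate 1, control replicate 2, thapsigargin replicate 1 and thapsigargin replicate 2, which is used for values by library from here on. In 8 of the 15 over 90% of reads were longer forms of an arm read, and in 5 under 5% were. Of the 15, 9 had their highest RPM in control replicate 1.

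The first kind was nearly confined to control replicate 1. Of the 29 precursors with at least 100 hairpin reads, 14 had over 90% of these reads there, which were mir-143, mir-10a, mir-101a, mir-214, mir-101b, mir-29a, mir-345, mir-27b, mir-423, mir-10b, mir-21, mir-125b-1, mir-210 and mir-22. Of the 29, 14 were also over 4 times as high in RPM there as in any other library. Only mir-143, mir-10a and mir-214 of these passed the low-count filter of the test below. Among the features tested, 3 of the 28 hairpins, 10.7%, and 0 of 310 arms were over 4 times as high there. That was 0.888% of all 338 features.

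mir-143, whose miRNA is abundant in mesenchymal cells, had 4034, 38, 126 and 25 hairpin reads. mir-10a, which lies in a Hox cluster, had 3703, 10, 6 and 5. mir-101a had 2796, 1, 2 and 0. In each of these control replicate 1 lay far above all other libraries. For mir-143 and mir-101a control replicate 2 lay among the thapsigargin libraries in read number, and for mir-10a it lay above both.

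mir-345 gave 646 hairpin reads in control replicate 1 and 0 in the other 3 libraries. Its arms had 487, 460, 1299 and 295 reads, so the precursor was present in all of them. Hairpin reads thus made up 57.0% of all mir-345 reads in control replicate 1, and for mir-101a and mir-101b 52.2% and 58.6%. For mir-214 the share was 30.8%, 1.8%, 0.770% and 1.02%.

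**Figure D5:**
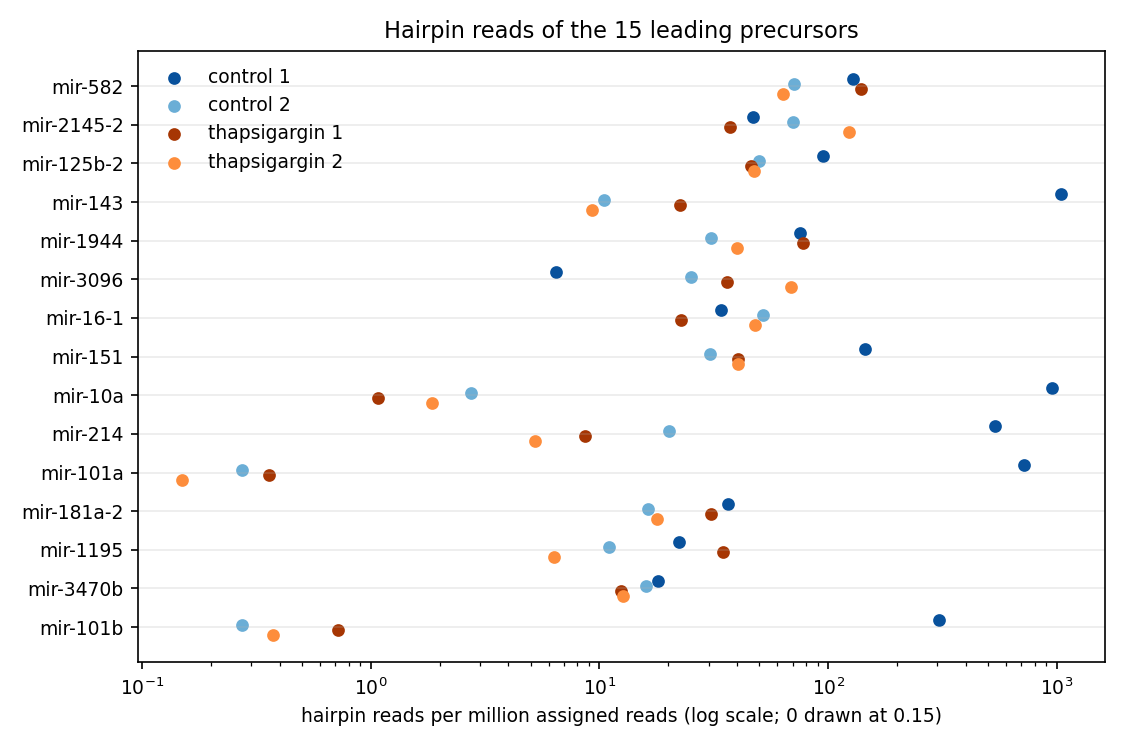
Hairpin reads in RPM (log scale, 0 drawn at 0.15) of the 15 precursors with the highest mean share, 1 point per library. mir-143, mir-10a, mir-214, mir-101a and mir-101b stand far higher in control replicate 1, while mir-582, mir-2145-2, mir-16-1 and mir-3470b lie within a few-fold in all 4 libraries.

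The second kind gave longer forms of arm reads in all libraries. For mir-582 and mir-181a-2 the arm began later in the tables than most of the reads did. mir-582 had 498, 258, 776 and 170 hairpin reads, or 128, 71.0, 139 and 63.3 RPM, and 97.3% of them were longer forms of an arm read. Arm reads were few, at 34, 24, 70 and 7, so that hairpin reads made up 93.6%, 91.5%, 91.7% and 96.0% of its reads. The arm table reads of miR-582-3p began at base 50 of the hairpin, while RefSeq places the first base of that arm at 47.

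Its reads began 2 bases before the arm table's first base in 58.1% of control replicate 1 reads, and 1 base before it in 65.1%, 60.8% and 64.9% of those of the other libraries. The leading reads of control replicate 1 and of thapsigargin replicate 1 differed by that base.
mir-582 top read of control replicate 1: aacctgttgaacaactgaaccc
mir-582 top read of thapsigargin replicate 1: acctgttgaacaactgaaccc
The first had 141, 28, 70 and 14 reads and the second 2, 109, 171 and 42.

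mir-181a-2 showed the same arrangement on its predicted star arm, which began at base 53 in the tables and at 51 in RefSeq. It had 142, 59, 171 and 48 hairpin reads, of which 87.9% were longer forms. In control replicate 1, 99.3% of the reads over that arm began 2 bases before the tables' first base, and in the others 98.3%, 95.4% and 93.8% began 1 base before it. mir-106b, a member of the cluster in the Mcm7 gene, had 64, 23, 97 and 20 hairpin reads, of which 94.6% were longer forms. Its 3′ arm began at base 52 in both annotations, and most reads over it began at that base in control replicate 1, 73.5%, and at the next base in the others, 81.5%, 65.7% and 82.7%.

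mir-125b-2 and mir-151 also had longer forms in all libraries, at a higher level in control replicate 1. Their arm starts could not be placed on a RefSeq hairpin. mir-125b-2 had 368, 181, 256 and 128, or 94.9, 49.8, 45.9 and 47.6 RPM, and 97.2% were longer forms. mir-151 had 563, 111, 226 and 108, or 145, 30.5, 40.5 and 40.2 RPM, with 99.1% longer forms. With the first base removed in control replicate 1, 388 of its 563 reads there became arm reads, against 17 of the 368 of mir-125b-2. The commonest mir-125b-2 reads again differed at the 5′ end between the libraries.
mir-125b-2 top read of control replicate 1: tcacaagtcaggttcttgggact
mir-125b-2 top read of thapsigargin replicate 1: cacaagtcaggttcttgggac
The first had 144 reads in control replicate 1 and 0 elsewhere, and the second 6, 55, 118 and 58.

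The third kind was not made of longer arm reads. mir-2145-2 had 182, 256, 207 and 333 hairpin reads, and 97.3% of them were identical to part of a transcript that GENCODE annotates as rRNA. It was highest with thapsigargin in replicate 2, at 124 RPM, and lowest with thapsigargin in replicate 1, at 37.1, so that the thapsigargin libraries enclosed the controls at 46.9 and 70.4. mir-3470b had 70, 58, 69 and 34 reads of 135 distinct sequences, 64.1% identical to an annotated non-coding transcript. mir-1195 had 86, 40, 194 and 17, of which 50, 17, 119 and 9 were runs of A alone.

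mir-1944 had 292, 112, 433 and 107 reads over 135 distinct sequences, and 1.17% of these reads were longer forms. mir-3096 had 25, 91, 201 and 185. Its leading pair of reads, both of 22 nt, had 8, 42, 72 and 87 reads and 8, 17, 77 and 48 reads. Hairpin reads identical to annotated non-coding transcripts came in all to 282, 308, 286 and 356, which was 1.31%, 15.6%, 7.56% and 22.2% of hairpin reads. Of these, mir-2145-2 gave 177, 247, 204 and 324.

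For 170 of the 240 names RefSeq gave a hairpin on which reads could be placed, which held 15407, 926, 1654 and 549 reads. A placed read was assigned to the region that held most of its bases. Reads over an arm named in the deposited tables made up 97.5%, 63.3%, 85.8% and 63.9% of placed reads. Loop reads made up 1.8%, 27.4%, 11.1% and 27.1%, and 5′ flank reads 0.428%, 6.26%, 1.57% and 4.37%. The 3′ flank held 14, 5, 2 and 6 reads.

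Loop and flank reads together were 2.32% and 34.2% of the placed control reads, against 12.8% and 32.6% after thapsigargin, so both groups spread widely (exact two-sided permutation p = 1, n = 2 each). In RPM the controls stood at 92.0 and 87.2, the thapsigargin libraries at 38.0 and 66.6. The groups did not overlap on that scale (89.6 ± 3.43 against 52.3 ± 20.2, SD, n = 2 each, exact two-sided permutation p = 0.33, the smallest possible). Some reads of 18 nt, the shortest kept, were seen only in control replicate 1. Among them were 16 loop reads of mir-182 and 8 reads of the mir-214 3′ flank. The 4 loop reads of mir-27b, also of 18 nt, were seen only in control replicate 2. The part of the difference due to this length limit was not tested.

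Among precursors with a RefSeq hairpin, loop reads came from 42 but mainly from 1. Loop and flank reads could be called only on such a hairpin, so names without one, such as mir-708, are left out. mir-16-1, which lies with mir-15a in an intron of the Dleu2 transcript, had 125, 185, 124 and 126 loop reads, or 32.2, 50.9, 22.2 and 46.9 RPM. That was 45.1%, 72.8%, 67.4% and 84.6% of all placed loop reads. Control and thapsigargin libraries overlapped in level. Without mir-16-1, loop and flank reads of the controls stood at 59.8 and 36.3 RPM, those of the thapsigargin libraries at 15.8 and 19.7. The length limit given above holds for these values too.

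The mir-16-1 loop read was sharply defined at both ends. Of its loop reads 98.6% ended at base 57, directly before the 3′ arm, which RefSeq starts at base 58. In control replicate 2 and both thapsigargin libraries it most often began at base 39, and in control replicate 1 at base 38, which is the first base after the 5′ arm. In the second line the capital marks the added first base.
mir-16-1 loop read: taagattctgaaattacct
mir-16-1 loop read of control replicate 1: Ttaagattctgaaattacct
The first had 0, 177, 123 and 121 reads and the second 122, 0, 0 and 0. In control replicate 1 the leading loop read thus spanned the loop from arm to arm. Reads over many arms also began 1 base earlier in that library. Whether the longer loop read is separate from that displacement was not tested.

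mir-214, made from the Dnm3os transcript in mesenchymal cells, followed with 35, 22, 8 and 1 loop reads, or 9.02, 6.05, 1.44 and 0.372 RPM. Both thapsigargin libraries lay below both controls. Its loop reads most often ended at base 70, directly before the 3′ arm. It also led the 5′ flank with 28, 9, 1 and 1 reads, or 7.22, 2.48, 0.179 and 0.372 RPM, and had 8, 0, 0 and 0 reads in the 3′ flank. Its arms had 4670, 3985, 6188 and 1364 reads.

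The other leading loops had few reads. mir-1983 had 13, 5, 10 and 2, mir-34a, whose miRNA is a p53 target, 7, 7, 4 and 6, and mir-31 3, 6, 9 and 3. In RPM these were 3.35, 1.38, 1.79 and 0.744 for mir-1983, 1.8, 1.93, 0.718 and 2.23 for mir-34a, and 0.774, 1.65, 1.61 and 1.12 for mir-31, with overlap between control and thapsigargin libraries for each. For mir-34a and mir-31 the loop reads most often began 1 and 2 bases after the 5′ arm, with 45.8% and 42.9% of their reads there. The mir-34a read shown begins at base 44, while base 43 was the commonest start. For mir-31 the commonest start differed by library, at bases 48, 52, 49 and 43. Its read shown, bases 52 to 72, runs 9 bases into the 3′ arm.
mir-34a loop read: tgagtattagctaaggaag
mir-31 loop read: gaactgagaacctgctatgcc

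The ends of loop reads were close to the arms. Of 862 loop reads with a 3′ arm in RefSeq, 89.7% ended within 2 bases of it, and of 813 with a 5′ arm 98.0% began within 2 bases of it. mir-16-1 set much of this. Without it the shares were 70.5% of 302 reads and 93.7% of 253 reads. Before the 3′ arm that was 83.4% of 151 reads, 71.0% of 69, 41.7% of 60 and 59.1% of 22 by library. Reads are at least 18 nt long and loops are short, so the length of a read leaves little choice of position. Of 811 loop reads between a pair of RefSeq arms, 95.4% were at most 2 bases shorter than the loop, or longer than it. Of the 37 with more room, 15 ended within 2 bases of the 3′ arm.

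Reads of the 5′ flank came from 20 precursors and mostly ended next to the arm, where moRs lie. Of 174 such reads, 85.1% ended within 2 bases of the first base of the 5′ arm. For 55 of them the RefSeq flank was at most 2 bases longer than the read, or shorter, so that position was partly set by read length. Of the 119 with more room, 116 ended within 2 bases of the arm. After mir-214 the leading precursors were mir-24-2, with 6, 3, 12 and 2 reads, and mir-3060, with 0, 15, 0 and 8. mir-326 had 4, 5, 4 and 6, and mir-674 8, 6, 1 and 0. All reads of mir-24-2 and mir-326 ended directly before the arm.

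The mir-3060 reads were of another sort, since they matched the first 17 bases of the hairpin, of which the last 4 lie in the arm. They were seen in both libraries of replicate 2 and in neither of replicate 1. The leading 5′ flank reads were as follows.
mir-214 5' flank read: cagagttgtcatgtgtct
mir-24-2 5' flank read: tccccgggctccgcctccc
mir-326 5' flank read: ctcatctgtctgttgggct
mir-674 5' flank read: tagtcatcaccctgagcct

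The 3′ flank had 27 reads from 5 precursors in all. mir-1934 had 3, 2, 1 and 2, mir-31 0, 2, 1 and 4, and mir-199a-2 2, 1, 0 and 0. mir-1191 had 1 read in control replicate 1. The 3′ flank reads of mir-31 began 1 base after the arm, while those of mir-1934 overlapped it by 10 bases.
mir-31 3' flank read: ttcctgtctgacagcagct
mir-214 3' flank read: tcacatgacaacccagcc

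Reads of 25 nt or longer were 22 of the hairpin reads of control replicate 1, or 0.103%, and 0 in each other library. A count of 0 allows up to 0.152%, 0.0793% and 0.187% in those libraries. Their longest read of any class was 24 nt, so longer precursor fragments were not detectable there.

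The effect of thapsigargin on single precursors was tested with edgeR's quasi-likelihood test over all 338 features that passed the low-count filter. They included 28 hairpins with 19212 reads, while 212 hairpins with 9598 reads did not pass. No hairpin passed with Benjamini-Hochberg adjustment at 0.05, and 0% of all features did (0 of 338). At an unadjusted p under 0.05 there were 5 hairpins, 1 higher and 4 lower, or 17.9%, against 5.33% of all features. DESeq2 called 3 of the 28 hairpins, and 4 of all 338 features. The groups did not overlap in 6 of the 28 hairpins, 21.4%, against 32.8% of all features. The log2 difference was above 0 in 17 hairpins and below 0 in 11, with a median of 0.15 against -0.01 over all features. With scaling by total reads the medians were -0.20 and -0.35, so the hairpin median turned sign. In bulk libraries such as these, fewer cells that make a precursor and less RNA per cell cannot be told apart.

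The smallest p belonged to let-7d, a member of the let-7 family that is abundant in differentiated cells. The controls held 59 and 69 of its hairpin reads, the thapsigargin libraries 8 and 2 (log2 fold change -3.71 ± 0.74 SE, Benjamini-Hochberg adjusted p = 0.256 in edgeR). Both controls lay above both thapsigargin libraries, but on different reads. In control replicate 1, 53 reads lay over the 5′ arm and 5 over the 3′ arm, and in control replicate 2 there were 0 and 69.
let-7d top read of control replicate 1: aagaggtagtaggttgcatagt
let-7d top read of control replicate 2: tatacgacctgctgcctttc
The first had 30 reads and the second 68, each in its own library only. With the first base removed in control replicate 1, 50 of its 59 let-7d reads became arm reads and the hairpin no longer passed the low-count filter.

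mir-214 and mir-10a followed among the lower hairpins. For mir-214 the controls had 2082 and 73 reads, the thapsigargin libraries 48 and 14 (edgeR log2 fold change -4.77 ± 1.33 SE, adjusted p = 0.800). With the first base removed in control replicate 1 the log2 difference was -1.85. mir-10a gave -7.74 ± 2.34 (edgeR adjusted p = 0.800), and -1.43 with the first base removed.

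On the higher side mir-708, made from an intron of Tenm4, had 36 and 10 control reads against 73 and 42 after thapsigargin. On the TMM-scaled CPM scale this was 6.69 and 3.08 against 11.9 and 21.5, with no overlap (log2 fold change 1.72 ± 0.66 SE, edgeR adjusted p = 0.800). Its leading reads differed by 1 base at the 5′ end, and none was a longer form of an arm read. RefSeq gave no hairpin for mir-708, so whether its reads lie in the loop was not tested.
mir-708 top read of control replicate 1: ggtagatgacttgcacttgaaca
mir-708 top read of thapsigargin replicate 1: gtagatgacttgcacttgaaca
The first had 24 reads in control replicate 1 only, and the second 0, 6, 54 and 34.

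mir-3096 had 25 and 91 control reads against 201 and 185 (log2 fold change 1.97 ± 0.95 SE, edgeR adjusted p = 0.876). mir-720, whose sequence is also known as a tRNA fragment, had 7 and 22 against 128 and 11 reads (log2 fold change 1.8 ± 0.98 SE, edgeR adjusted p = 0.876). The high value of mir-720 lay in thapsigargin replicate 1 alone, and without that library the log2 difference was 0.52.

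Lists of precursors with a known way of being made were described by their reads. All 12 let-7 family precursors had hairpin reads, in sum 256, 84, 81 and 14. Besides let-7d, let-7g had 59, 0, 0 and 0, and let-7i 41, 1, 9 and 6. let-7b had 16, 0, 17 and 0, let-7c-1 18, 0, 10 and 2, and let-7e 9, 0, 11 and 0. let-7a-1 had 13, 3, 5 and 2, let-7a-2 19, 3, 0 and 0, let-7c-2 6, 4, 13 and 0, and let-7f-2 13, 4, 4 and 2. let-7b, let-7c-1 and let-7e had 0 to 2 reads in both libraries of replicate 2, while let-7a-1 and let-7f-2 had 2 to 4 reads in each.

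The Drosha-independent pair mir-320 and mir-484, made from capped transcript starts, had 13, 31, 9 and 5 and 5, 3, 2 and 2 reads. Of 4 mirtrons, which are cut out by splicing, 2 had reads, 6 in all. mir-451, which Argonaute cuts in place of Dicer, had 0 reads in each library. Of the entries that resemble tRNA or rRNA, 9 of 15 had reads, in sum 211, 304, 373 and 364. Besides mir-2145-2 and mir-720 these included mir-1274a with 4, 7, 17 and 6, mir-712 with 6, 5, 6 and 2, mir-1957 with 1, 4, 5 and 5, mir-714 with 4, 6, 2 and 3, and mir-2145-1 with 5, 2, 2 and 3.

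The cluster of mir-322 and mir-503, whose miRNAs slow the cell cycle, had 92, 12, 14 and 7 hairpin reads over 5 of 7 precursors. mir-322 had 40, 3, 0 and 0, mir-351 39, 8, 14 and 6 and mir-542 10, 0, 0 and 1. Each was highest in control replicate 1. The group of miR-216 and miR-217 had 1 hairpin read in all.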

How the data were processed

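Per library, the authors deposited the count of every distinct read sequence and of every precursor or arm name, in separate mature, star, predicted star and hairpin files, per the file headers; their percent columns, also deposited, were not used. CASAVA 1.8.1, cutadapt, Bowtie and build mm9 are named in the submitters' processing notes; the program that counted them is not named in those sources. Members and lists were chosen with earlier results of these data known. Reads with 1 match were summed by name. Each hairpin read was placed without gaps on its RefSeq hairpin (GRCm38.p6), with up to 2 mismatches in its first 17 bases. It was called loop or flank where at least 50% of its bases lay there. RefSeq gave no hairpin for 70 names. Their reads were counted and tested but not placed, and reads printed for them are as deposited. Differences were tested two-sided with edgeR 4.0.16 in R 4.3.3 (TMM, filterByExpr minimum count 10, robust quasi-likelihood), and library shares with exact permutation tests in scipy 1.17.1. DESeq2 1.42.0, other scalings and filters, ambiguous reads and left-out libraries were alternatives. The fit was tested on simulated data. Named precursors were the 15 with the highest mean share, 3 with the smallest p in each direction, the 5 leading each place class, and list members with at least 10 reads. Other precursors named as held by control replicate 1, and mir-181a-2 and mir-106b as examples of start positions, were chosen after their values were seen.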

Additional observations from a re-analysis of the deposited data

How the results depend on the processing

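No hairpin was called with edgeR's relative log expression or total-read scaling, a minimum count of 5, the first base removed in control replicate 1, or ambiguous reads added. DESeq2 called 3 of 28 hairpins (let-7d, mir-143 and mir-214) and 4 features in all. Without a low-count filter edgeR called 6 of 240 hairpins and 9 features in all. With 1 control left out, the log2 difference of let-7d was -4.11 without control replicate 1 and -3.12 without control replicate 2. That of mir-214 was -1.58 and -5.64. The lone control is then assumed to vary like the other group. Replicate numbers are shared by the groups, but nothing in the labels pairs them, and deviations of same-numbered libraries correlated at 0.48 over all features. The replicate block gave 0 calls. The block with the first base removed, chosen after seeing the data, called 3 of 26 hairpins (mir-214, mir-708 and mir-720) and 8 features in all.

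Differences of thapsigargin minus control, with 1 library left out at a time, ran from -0.489 to 0.00932 percentage points for the hairpin share, from -11.5 to 20.4 for the loop and flank share, from -8.30 to 17.3 for the loop share and from -3.22 to 3.06 for the flank share. The flank difference as reported was -0.0827. For reads of 25 nt or longer they ran from -0.103 to 0, and at 27 nt or longer the difference was 0. All other alternatives of these shares kept their direction. Total-read scaling moved the median log2 difference of all features from -0.01 to -0.35. With 2 libraries a group and 1 that stood apart, the depth of single hairpins, of which 150 had under 10 reads, limits every comparison.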

Other observations

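Reads that matched several precursors were left out of the values above and are given here. They numbered 10277, 119, 1657 and 204 in control replicate 1, control replicate 2, thapsigargin replicate 1 and thapsigargin replicate 2. Reads shared by the mir-199a-1, mir-199a-2 and mir-199b hairpins, whose miRNAs are made in mesenchymal cells, came to 9157, 4, 7 and 4, which was 89.1% of these reads in control replicate 1. Those of the mir-26a pair came to 674, 0, 0 and 0. Reads of the mir-1937 group numbered 227, 98, 1615 and 190, or 97.5% of the ambiguous hairpin reads of thapsigargin replicate 1. In RPM the mir-1937 group stood at 58.5, 27, 290 and 70.7, so both thapsigargin libraries lay above both controls, and this difference was not tested. The mir-199 group stood at 2361, 1.10, 1.26 and 1.49 RPM.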
